A study of Mus musculus with 2 samples.

Results

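The genes described here encode the proteins that circulate in blood plasma together with the serpins, a family of protease inhibitors to which several plasma proteins belong. They were matched by gene symbol and not by value, but the choice was made with earlier results of these data known. The set holds apolipoproteins, complement components, coagulation factors and fibrinogen chains. It also holds inter-alpha-trypsin inhibitor heavy chains, serpins, and carrier and acute phase proteins led by albumin and transthyretin. Of 92 such symbols on the array, 65 had a value on both arrays, out of 13506 named genes with values on both. Each of the 65 was read by 1 probe. A further 5 were read by array 1 alone and 5 by array 2 alone, and 17 lacked a value on either.

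RNA came from liver metastases and from primary tumours of Colon26, a mouse colon carcinoma line whose cultured cells were placed under the rectal mucosa of Balb/c mice. Each of 2 two-colour arrays held 1 liver metastasis, labelled with Cy3, and 1 primary tumour, labelled with Cy5, and the tumours of the 2 arrays were grown and collected separately. The dyes were not swapped, so a bias of a probe towards 1 dye cannot be told apart from a difference between the tissues. The labels call the RNA that of the Colon26 cells in both tissues, without saying how host cells were kept out, and give neither age nor sex of the mice.

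Every value is a log ratio of the 2 channels, taken as log2. Neither the log base nor the channel in the numerator is stated, so values are given as positive or negative without assigning either side to the metastasis or the primary tumour. A value of 1 then stands for a 2-fold ratio, and folds below hold only if the base is 2. The table holds ratios and no intensities, so it does not show how strongly a gene was expressed in either tissue, and whether the tissues carried liver or tumour markers at a defined level could not be checked. In RNA from whole tissue, fewer cells of a type and less RNA per cell cannot be told apart.

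Most plasma proteins are made by hepatocytes, which secrete albumin, the apolipoproteins that package lipids, and the zymogens of the complement and coagulation cascades. In both cascades a protease activates the next one by cleavage, and serpins stop these proteases by offering a loop that is cut and then traps the enzyme. Other cells contribute as well: macrophages make complement C1q and apolipoprotein E, and many epithelial and tumour cells make clade B serpins, which mostly act inside the cell. The comparison of a liver metastasis with a tumour at the rectum therefore bears on genes that the surrounding liver also expresses.

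As a group these genes did not lie to one side. Their median was 0.03 over the means of the arrays (0.01 by array 1 alone, 0.13 by array 2 alone), against -0.02 over all 13506 genes. Of the 65, 25 were positive on both arrays, 18 were negative on both and 22 had mixed signs or a value of 0 on 1 array. Over all genes, 33.9% were positive on both arrays and 38.2% negative on both, while the shares here were 38.5% and 27.7%.

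Agreement between the 2 arrays was described by shares and spreads, with no test of a difference from other genes. The same sign on both arrays was found for 66.2% of them, against 72.2% of all genes. The median SD between the arrays was 0.32 for these genes and 0.17 for all genes, and the SD across genes was 0.63 and 0.72 on arrays 1 and 2, against 0.51 and 0.55 across all genes. Between the arrays Pearson's r was 0.53 across the 65 genes and 0.61 across all genes, and Spearman's rho was 0.45 and 0.58. Genes share the arrays and are not independent replicates, so these correlations are descriptions.

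The share differed between the serpins and the other plasma genes. Among 26 serpins, 80.8% kept the same sign, with Pearson's r of 0.70, and among the other 39 genes 56.4% did, with an r of 0.34. Spearman's rho was 0.64 and 0.31. Within the serpins the share was 92.9% for clade B and 66.7% for the extracellular ones, against 72.2% of all genes. The share of the 12 extracellular serpins was near that of all genes. Serpinf2, at 0.00 on array 1 and -0.71 on array 2, was counted there as without a common sign. These differences between the classes were not tested.

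**Figure D1:**
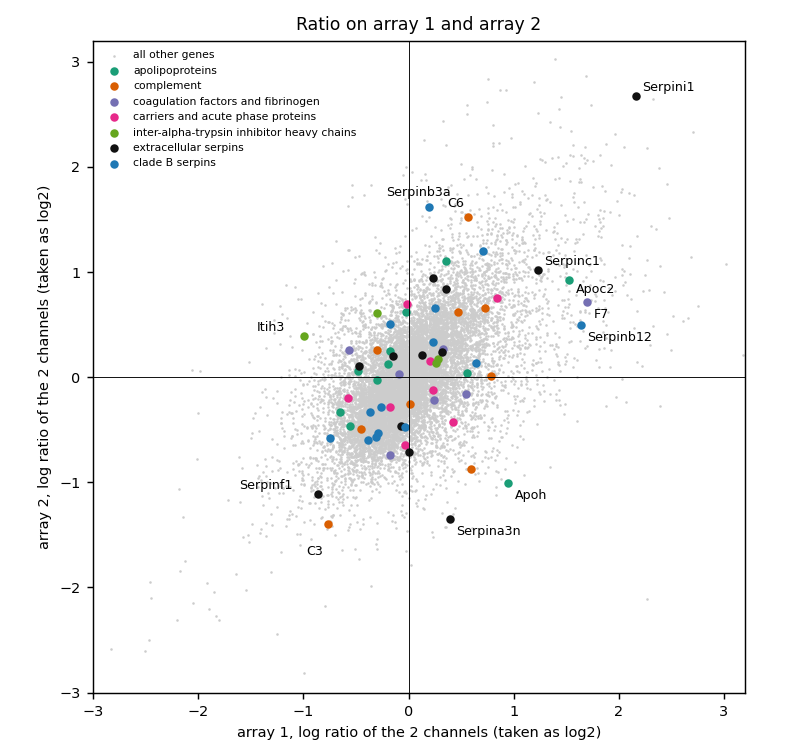
Each point is 1 gene, with its log ratio (taken as log2) on array 1 on the horizontal axis and on array 2 on the vertical axis; coloured points are the 65 plasma protein and serpin genes by class and grey points all others. Serpini1 lies far in the upper right at 2.16 and 2.67, while Apoh, at 0.95 and -1.01, lies in the lower right; 17 other genes fall outside the axes, which run from -3 to 3.2.

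Each gene's ratio was tested against 0 with limma's moderated test, fitted on all 13506 genes and adjusted by Benjamini-Hochberg, and a gene was called when its adjusted p was below 0.05. The test called 2 of the 65, both on the positive side, which is 3.08%, against 2.90% of all genes. The share called is thus near the background. Of the whole array, 2.12% was called on the positive and 0.777% on the negative side. The same 2 genes, Serpini1 and Serpinc1, were the ones at least 2-fold from 0 on the same side on both arrays (3.08%, against 2.27% of all genes). An unadjusted p below 0.05 was met by 24 of the 65, 15 positive and 9 negative, or 36.9%, against 27.5% of all genes.

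Serpini1, which encodes neuroserpin, a secreted inhibitor of tissue plasminogen activator best known from neurons, was the farthest from 0. Its log ratio was 2.16 on array 1 and 2.67 on array 2. Both arrays placed it on the positive side, and no other of the 65 genes reached 2 on either array. The mean was 2.42 ± 0.36 (SD, n = 2), and limma gave it a 95% interval of 1.93 to 2.90 (adjusted p = 0.0282). It had rank 9 from the top among 13506 genes. With base 2 the mean stands for a 5.34-fold ratio. The call was lost after quantile normalization (limma adjusted p = 0.0641) and without moderation of the variances (adjusted p = 0.465 in the limma fit), over alternatives that ran from 0.0283 to 0.465.

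The gene beside Serpini1 lay on the same side. In the RefSeq annotation of GRCm38.p6, Serpini1 starts head to head with Pdcd10, which encodes an adaptor protein, with 641 bases between the 2 annotated starts. Pdcd10 had 1.03 on array 1 and 1.35 on array 2, a mean of 1.19 ± 0.22 (SD, n = 2), and was called (limma adjusted p = 0.0438). Its call was kept in 5 of 9 alternatives. Golim4, the protein-coding gene that follows Serpini1 on its other side, had 0.61 and 0.63, also positive on both arrays, with a limma adjusted p of 0.0922. Serpini2, a serpin on the far side of Pdcd10, had 1.28 on array 1 and no value on array 2. Pdcd10 and Golim4 were looked up after the value of Serpini1 was seen.

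The promoter windows of this divergent pair are shown because both genes were called on the same side. They are RefSeq sequences of C57BL/6J on GRCm38.p6, 250 bases before to 50 bases after the annotated start, read 5′ to 3′ along the gene's own strand, and do not show Balb/c variants. Capitals mark matches, on either strand, to 5 motifs: the TATA box TATAAA, the CCAAT box CCAAT, the C/EBP motif TTNNGNAA, the nuclear receptor half-site AGGTCA and the HNF1 half-site GTTAAT. Some matches could overlap, and a match is a description of the letters only. Serpini1 is at chr3:75557243-75557542 on the plus strand and Pdcd10 at chr3:75556803-75557102 on the minus strand.
Serpini1: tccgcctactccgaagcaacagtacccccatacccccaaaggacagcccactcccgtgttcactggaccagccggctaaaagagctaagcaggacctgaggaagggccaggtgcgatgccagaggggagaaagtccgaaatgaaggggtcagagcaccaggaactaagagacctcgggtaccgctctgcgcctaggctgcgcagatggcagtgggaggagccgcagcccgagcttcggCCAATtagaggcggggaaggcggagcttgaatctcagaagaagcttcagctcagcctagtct
Pdcd10: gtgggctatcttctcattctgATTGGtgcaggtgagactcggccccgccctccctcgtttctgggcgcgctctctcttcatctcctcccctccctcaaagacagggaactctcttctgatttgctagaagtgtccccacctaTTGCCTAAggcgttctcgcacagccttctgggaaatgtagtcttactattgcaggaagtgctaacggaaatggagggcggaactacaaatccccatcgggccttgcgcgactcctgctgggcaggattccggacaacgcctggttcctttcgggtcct
The Serpini1 window has 1 CCAAT match, starting 12 bases before the annotated start, and 60% G and C. The Pdcd10 window has 1 CCAAT match on its opposite strand and 1 C/EBP match, with 56.0% G and C, against a median of 52.7% over all promoter windows. Neither window holds the TATA letters, the AGGTCA half-site or the HNF1 half-site.

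Serpinc1, which encodes antithrombin, the main plasma inhibitor of thrombin and factor Xa, was the other called gene. It had 1.23 on array 1 and 1.02 on array 2, and was therefore positive by a similar amount on both. The mean was 1.13 ± 0.15 (SD, n = 2), and limma gave a 95% interval of 0.72 to 1.53 (adjusted p = 0.0438). With base 2 this is a 2.18-fold ratio. The call was kept in 4 of 9 alternatives, and the adjusted p in limma ran from 0.0438 to 0.463. Medians of probes and symbols as given, among those 4, left its values unchanged. It was 0.0547 with both arrays brought to the same spread and 0.0558 in a limma fit on probes.

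Serpinf1 was the serpin farthest from 0 on the negative side. It encodes pigment epithelium-derived factor, a secreted serpin that does not inhibit proteases and is known as an inhibitor of blood vessel growth. It had -0.86 on array 1 and -1.11 on array 2, negative on both, with a mean of -0.99 ± 0.18 (SD, n = 2) and a limma adjusted p of 0.0514, just above the threshold. Serpinf2, its direct neighbour, encodes the plasmin inhibitor antiplasmin and had 0.00 and -0.71.

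The promoters of Serpinc1 and Serpinf1 are shown because these serpins lay on opposite sides, each with the same sign on both arrays. Their SDs between the arrays, 0.15 and 0.18, were near the median of 0.17 over all genes. Serpinc1 is at chr1:160978333-160978632 on the plus strand and Serpinf1 at chr11:75422574-75422873 on the minus strand, with the same windows and capitals as above.
Serpinc1: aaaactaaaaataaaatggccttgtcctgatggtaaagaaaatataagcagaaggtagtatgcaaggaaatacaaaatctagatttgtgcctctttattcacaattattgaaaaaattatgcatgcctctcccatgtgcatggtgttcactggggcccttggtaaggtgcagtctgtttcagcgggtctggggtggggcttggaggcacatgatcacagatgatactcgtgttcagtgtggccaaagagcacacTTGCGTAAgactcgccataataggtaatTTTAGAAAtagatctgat
Serpinf1: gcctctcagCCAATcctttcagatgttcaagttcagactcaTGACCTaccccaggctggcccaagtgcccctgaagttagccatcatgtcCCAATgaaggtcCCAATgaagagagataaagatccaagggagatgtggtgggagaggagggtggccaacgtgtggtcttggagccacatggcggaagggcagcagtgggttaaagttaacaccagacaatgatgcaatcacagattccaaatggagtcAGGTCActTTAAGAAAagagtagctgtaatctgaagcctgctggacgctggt
The Serpinc1 window holds 2 C/EBP matches, both after the annotated start, and 41.3% G and C. The Serpinf1 window holds 3 CCAAT matches, 1 C/EBP match and 2 AGGTCA half-sites. The letters TATAAA and the HNF1 half-site were found in neither window.

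The other extracellular serpins were spread around 0. This class of 12 had 6 genes on the positive and 2 on the negative side of both arrays, and a median of 0.10. Serpina12, the adipose-derived serpin vaspin, had 0.23 and 0.94, and Serpina3h, a transcribed pseudogene in the RefSeq table, had 0.36 and 0.84. Both were positive on both arrays, with limma adjusted p of 0.170 and 0.129. Serping1, which encodes the C1 inhibitor of complement and the contact system, had 0.13 and 0.21, close to 0 on both arrays.

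Some of these serpins turned over between the arrays. Serpina3n, an acute phase serpin, had 0.39 on array 1 and -1.35 on array 2, an SD of 1.23. Serpine2, protease nexin, which inhibits thrombin and plasminogen activators, had -0.47 and 0.10. Neither can be placed on a side. Serpina6, which encodes the corticosteroid carrier of plasma, had -0.07 and -0.46, Serpina1f had 0.32 and 0.24, and Serpina3a had -0.15 and 0.20. The mouse Serpina1 and Serpina3 genes are families of close copies, and a probe of 1 copy may read others.

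The clade B serpins, which mostly stay inside cells, divided into 6 genes with positive values and 7 with negative values on both arrays, with 1 whose signs differed. This is 92.9% of 14 genes with the same sign, against 72.2% of all genes. None of the 14 was called (0 in limma), while 8 stood at an unadjusted p below 0.05, 4 on each side. Over all genes 2.90% were called and 27.5% had such an unadjusted p in limma. Several belong to families of close copies (Serpinb3, Serpinb6 and Serpinb9), so their probes may read more than 1 gene.

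On the positive side, Serpinb2, which encodes plasminogen activator inhibitor type 2, had 0.71 and 1.196, a mean of 0.95 ± 0.34 (SD, n = 2; limma adjusted p = 0.0658). Serpinb12, an epithelial serpin, had 1.64 and 0.50, and Serpinb3a, of the squamous cell carcinoma antigen family, had 0.19 and 1.62. All were positive on both arrays, but Serpinb12 and Serpinb3a differed by more than 1 unit between the arrays, with SDs of 0.81 and 1.01. Serpinb8 had 0.25 and 0.66. Serpinb9, an inhibitor of granzyme B, had 0.64 and 0.14, and Serpinb6b had 0.23 and 0.34.

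On the negative side, Serpinb9d had -0.75 and -0.58, a mean of -0.66 ± 0.12 (SD, n = 2; limma adjusted p = 0.0886). Serpinb9b had -0.39 and -0.59, Serpinb13 had -0.31 and -0.57, and Serpinb6a, an inhibitor of several trypsin-like proteases and cathepsin G, had -0.29 and -0.53. Between the arrays these genes had SDs from 0.12 for Serpinb9d to 0.18 for Serpinb13, against a median of 0.17 over all genes. Serpinb6c had -0.37 and -0.33, Serpinb1a, an inhibitor of neutrophil elastase, had -0.26 and -0.28, and Serpinb9e had -0.03 and -0.48. Serpinb9f, at -0.18 and 0.50, was the gene with mixed signs.

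**Figure D2:**
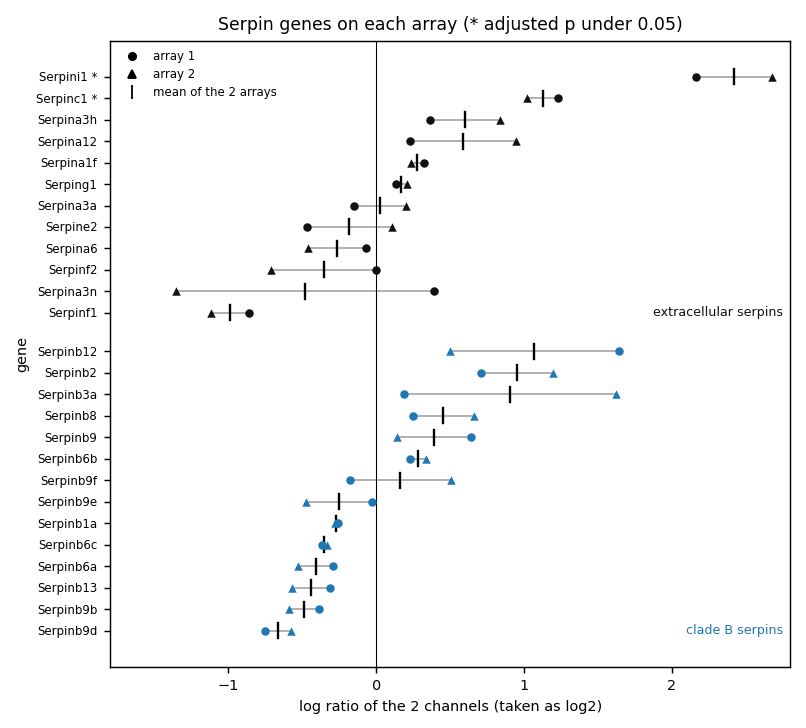
Log ratio (horizontal axis, taken as log2) of the 26 serpin genes, extracellular serpins above and clade B serpins below, with a circle for array 1, a triangle for array 2 and a bar for their mean. The 2 called genes carry an asterisk and stand at the top, with means of 2.42 and 1.13; of the 14 clade B genes, 6 have both points right of 0 and 7 both left of 0.

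The complement genes held values on both sides. Both arrays were positive for 4 of the 9 genes and negative for 2. None was called (0 in limma), and 5 stood at an unadjusted p below 0.05, against 27.5% of all genes. C3, the component on which all complement pathways converge, was the lowest of the 65 genes, at -0.77 on array 1 and -1.39 on array 2. Its mean was -1.08 ± 0.44 (SD, n = 2; limma adjusted p = 0.0629). Masp1, a protease of the lectin pathway, was also negative on both, at -0.45 and -0.49, while Masp2, the other lectin pathway protease, had 0.01 and -0.26.

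Cfb, Cfi and C6 had positive values on both arrays, and none of them was called. Cfb, factor B, the protease that forms an enzyme with C3b, had 0.73 and 0.66, a mean of 0.70 ± 0.05 (SD, n = 2; limma adjusted p = 0.0801). Cfi, factor I, which degrades C3b, had 0.47 and 0.62, with a limma adjusted p of 0.115. Both were nearly equal on the 2 arrays and opposite in sign to C3, whose product they act on. C6, a part of the membrane attack complex, had 0.57 and 1.52, positive on both arrays with a wider spread (limma adjusted p = 0.0944). C9, the pore-forming component, had 0.78 and 0.01, and C8a had -0.30 and 0.26. C1qc, a chain of C1q, which macrophages make, had 0.59 and -0.88 and thus no common side.

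The C3 promoter is shown because C3 was the lowest of the 65 genes, at chr17:57228087-57228386 on the minus strand.
C3: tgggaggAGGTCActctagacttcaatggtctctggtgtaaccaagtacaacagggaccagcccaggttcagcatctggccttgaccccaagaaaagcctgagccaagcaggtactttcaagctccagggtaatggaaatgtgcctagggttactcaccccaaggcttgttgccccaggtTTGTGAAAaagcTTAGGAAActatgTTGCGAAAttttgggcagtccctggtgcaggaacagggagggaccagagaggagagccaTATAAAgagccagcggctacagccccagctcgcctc
The window holds 1 TATA match, 3 C/EBP matches and 1 AGGTCA half-site. The TATA match starts 15 bases after the annotated start, not before it. Over all 32851 promoter windows, 13.6% hold the TATA letters, 37.4% the CCAAT letters, 40.7% the C/EBP motif, 16.3% the AGGTCA half-site and 7.10% the HNF1 half-site, on either strand. RefSeq windows were found for 52 of the 65 genes, 59 windows in all, and of these 27.1% hold the TATA letters, 25.4% the CCAAT letters, 59.3% the C/EBP motif, 33.9% the AGGTCA half-site and 13.6% the HNF1 half-site. These shares describe the chosen genes, whatever their ratios.

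Complement genes outside the symbol rule were taken from a wider list. It held 21 measured genes, 8 on the positive and 4 on the negative side of both arrays. Limma called 2 of them, both positive, against 2.90% of all genes. Hc, which encodes complement C5, had 1.2 and 1.31, a mean of 1.26 ± 0.08 (SD, n = 2; limma adjusted p = 0.0383). C4bp, a soluble inhibitor of the C3 convertases, had 1.12 and 1.43, a mean of 1.28 ± 0.22 (SD, n = 2; limma adjusted p = 0.0420). The call of Hc was kept in 6 of 9 alternatives and that of C4bp in 5. Of the 4 terminal components measured, Hc alone was called, while C6 and C9 did not pass and C8a had mixed signs.

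Other members of that list did not pass. Clu, clusterin, which blocks the membrane attack complex, had 0.78 and 0.65, and Fcna, a ficolin of the lectin pathway, had 0.60 and 0.76. Cr1l, a membrane regulator of C3, had 0.58 and 0.39. All of these were positive on both arrays. Itgax and Itgb2 encode the chains of complement receptor type 4. Itgax had 1.21 and 0.65, and Itgb2 had 0.36 and 2.21. Negative on both arrays were Cpn2, the carrier subunit of carboxypeptidase N, at -0.38 and -0.73, and C1qbp, a mitochondrial protein that can bind C1q, at -0.35 and -0.51.

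Among 7 coagulation genes both arrays were positive for 2 and negative for 1. None was called (0 in limma). Against 27.5% of all genes, 1 stood at an unadjusted p below 0.05. That gene was F7, the protease that starts clotting with tissue factor, at 1.70 on array 1 and 0.71 on array 2. It was positive on both arrays by unequal amounts, with a mean of 1.21 ± 0.70 (SD, n = 2; limma adjusted p = 0.0810). F10, its direct neighbour and substrate, had 1.69 on array 1 and no value on array 2. F3, tissue factor, the receptor that tumour cells often carry, had 0.55 and -0.16, with a limma interval from -0.37 to 0.75.

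The remaining factors lay near 0 or differed between the arrays. F12, which starts the contact pathway, had 0.33 and 0.27. F9 had -0.18 and -0.74, and F8, the cofactor of factor IX that endothelial cells make, had -0.57 and 0.26. Of the fibrinogen chains, which form the clot, Fga had 0.24 and -0.22 and Fgb had -0.09 and 0.03. Their means of 0.01 and -0.03 were among the closest to 0, with limma intervals from -0.46 to 0.47 and from -0.42 to 0.36.

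Coagulation genes outside the symbol rule had a median of 0.35 over 16 measured. Both arrays were positive for 7 and negative for 1. None was called (0 in limma). An unadjusted p below 0.05 in limma was met by 5 of the 16, all positive, against 27.5% of all genes, counted on either side. Whether this list as a whole lay to the positive side was not tested. Tfpi2, an inhibitor of plasmin and trypsin-like proteases, had 1.46 and 0.57. Gas6, a vitamin K-dependent ligand of receptor kinases, had 0.52 and 1.07. The others were F2rl3, a thrombin receptor, at 1.06 and 0.27, Proc, the anticoagulant protein C, at 0.32 and 0.79, and Hgfac, a protease that activates hepatocyte growth factor, at 0.32 and 0.62.

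Genes of fibrinolysis and other serpin targets had a median of -0.03 over 16 measured. Plat, tissue plasminogen activator, the protease that neuroserpin inhibits, had 0.87 and 1.42, a mean of 1.14 ± 0.39 (SD, n = 2; limma adjusted p = 0.0553). It was positive on both arrays, on the same side as Serpini1 and Serpinb2. Plau, the urokinase that Serpinb2 inhibits, had 0.19 and 0.32. Cpb2, a carboxypeptidase of plasma that slows clot breakdown, had 1.24 and 0.68, and Anxa2, a cell surface receptor for plasminogen, had -0.44 and -0.75. Plg, plasminogen itself, had 0.09 and -0.17. Limma called 0 of the 16, and 4 stood at an unadjusted p below 0.05, against 27.5% of all genes.

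The apolipoproteins were evenly divided, with 3 of 11 positive, 3 negative and 5 mixed. None was called (0 in limma), and 4 stood at an unadjusted p below 0.05, against 27.5% of all genes. Apoc2, the activator of lipoprotein lipase, had 1.53 and 0.92, a mean of 1.23 ± 0.43 (SD, n = 2; limma adjusted p = 0.0527), just above the threshold. Apoc3, which inhibits that lipase, had -0.56 and -0.47, a mean of -0.51 ± 0.07 (SD, n = 2; limma adjusted p = 0.122). The activator and the inhibitor were thus on opposite sides on both arrays.

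Neighbouring apolipoprotein genes did not share a side. In the cluster of Apoa1, Apoc3, Apoa4 and Apoa5, Apoa4 had 0.36 and 1.11, while Apoc3 and Apoa5, which flank it, were negative on both arrays. Apoa5, a regulator of plasma triglycerides, had -0.65 and -0.33. Apoa1, the main protein of high-density lipoprotein, had 0.75 on array 1 and no value on array 2. In the other cluster Apoc2 stood apart from Apoc1, at -0.30 and -0.03, and Apoe, at -0.48 and 0.06.

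Apoh, which binds anionic phospholipids, had 0.95 on array 1 and -1.01 on array 2, with an SD of 1.39. Apob, the structural protein of low-density lipoprotein, had -0.02 and 0.62, Apof had 0.56 and 0.04, Apom had -0.20 and 0.13, and Apoa2 had -0.18 and 0.25. The limma interval of each of these genes included 0.

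Genes that handle lipoproteins held 3 called members of 18 measured, 1 positive and 2 negative. Over all genes 2.90% were called. Lipc, the hepatic lipase, had 1.32 and 0.95, a mean of 1.13 ± 0.26 (SD, n = 2; limma adjusted p = 0.0475). Abcg1, a transporter that exports cholesterol to high-density lipoprotein, had -3.47 and -1.77, a mean of -2.62 ± 1.2 (SD, n = 2; limma adjusted p = 0.0483). Apobec1, which edits the Apob mRNA, had -1.42 and -0.94, a mean of -1.18 ± 0.34 (SD, n = 2; limma adjusted p = 0.0485). The calls of Abcg1 and Apobec1 were each kept in 2 of 9 alternatives, medians of probes and symbols as given, and that of Lipc in 3. Those 2 alternatives left the values of these genes unchanged, so a call kept there adds no support. Lrp1, a receptor for Apoe and for serpin-protease complexes, had -1.38 and -0.90 and a limma adjusted p of 0.0508. The median of the list was -0.14.

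The carriers and acute phase proteins gave 2 genes positive, 3 negative and 3 mixed of 8, with 0 called by limma. Against 27.5% of all genes, 1 had an unadjusted p below 0.05. That gene was Ttr, transthyretin, the carrier of thyroid hormone and retinol-binding protein, at 0.84 and 0.76, a mean of 0.80 ± 0.06 (SD, n = 2; limma adjusted p = 0.0630). Alb, albumin, the most abundant hepatocyte product, had -0.03 and -0.64, opposite in sign to Ttr on both arrays. Its mean was -0.34 ± 0.43 (SD, n = 2), with a limma interval from -0.86 to 0.18.

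Proteins that bind haemoglobin or haem did not move together. Hp, haptoglobin, had 0.23 and -0.12, and Hpx, hemopexin, had -0.01 and 0.70. Of the serum amyloid A genes, Saa2 had -0.58 and -0.20, while Saa4 had 0.20 and 0.16. Ambp had -0.18 and -0.28, and Ahsg, the fetuin that binds calcium phosphate, had 0.42 and -0.42. Saa3, which macrophages make in the mouse, had -0.57 on array 2 and no value on array 1.

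The inter-alpha-trypsin inhibitor heavy chains, which stabilise hyaluronan in the matrix, had no called gene in limma's test. An unadjusted p below 0.05 was met by 0 of 4, against 27.5% of all genes. Itih1 had 0.26 and 0.14, and Itih5, a form expressed outside the liver as well, had 0.28 and 0.17. Both were positive on both arrays. Itih3 had -0.99 and 0.39, and Itih4 had -0.30 and 0.61, so the neighbours Itih4, Itih3 and Itih1 showed no common side.

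**Figure D3:**
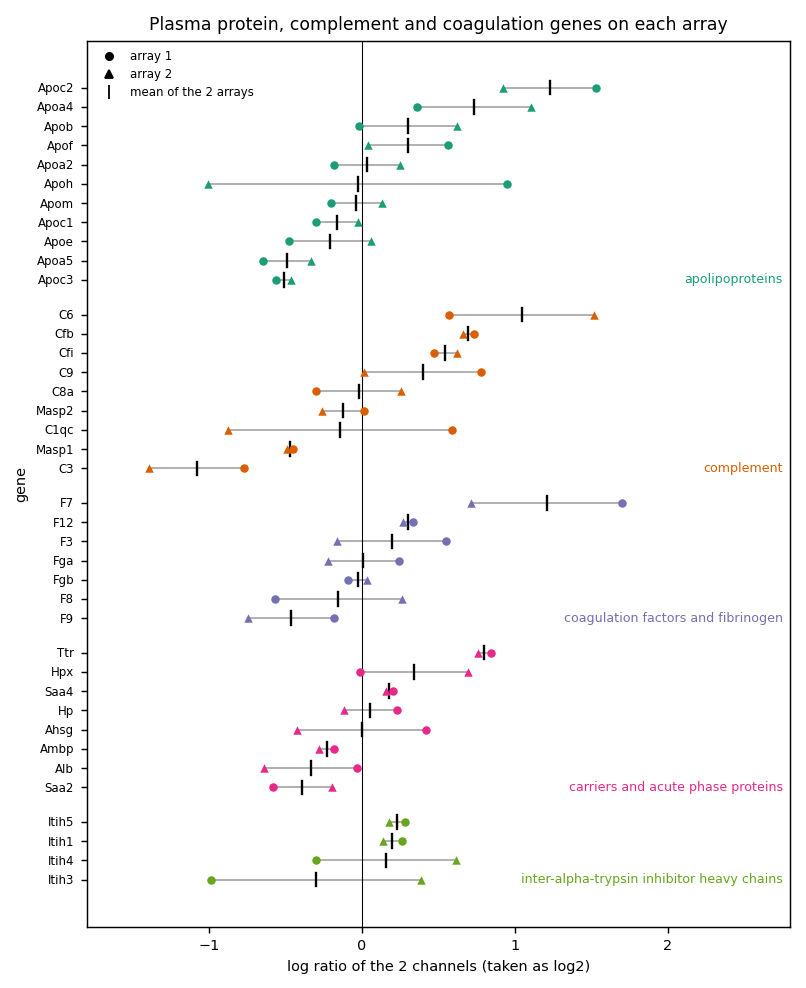
Log ratio (horizontal axis, taken as log2) of the 39 genes outside the serpins, by class and in order of their mean, with a circle for array 1, a triangle for array 2 and a bar for their mean. Apoc2, C6, F7 and Ttr head their classes with both points right of 0 and C3 stands lowest, while the line of Apoh crosses 0 from -1.01 to 0.95.

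Gene order gives the closest relatives side by side. In the first cluster of clade B serpins, 4 of 5 measured genes had a positive mean (Serpinb12, Serpinb3a, Serpinb2 and Serpinb8) and Serpinb13, between Serpinb12 and Serpinb3a, a negative one. In the second cluster, 3 of 9 measured genes had a positive mean and 6 a negative one, from -0.66 to 0.39. The clusters were set side by side after the values were seen, and no test was made of their difference.

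**Figure D4:**
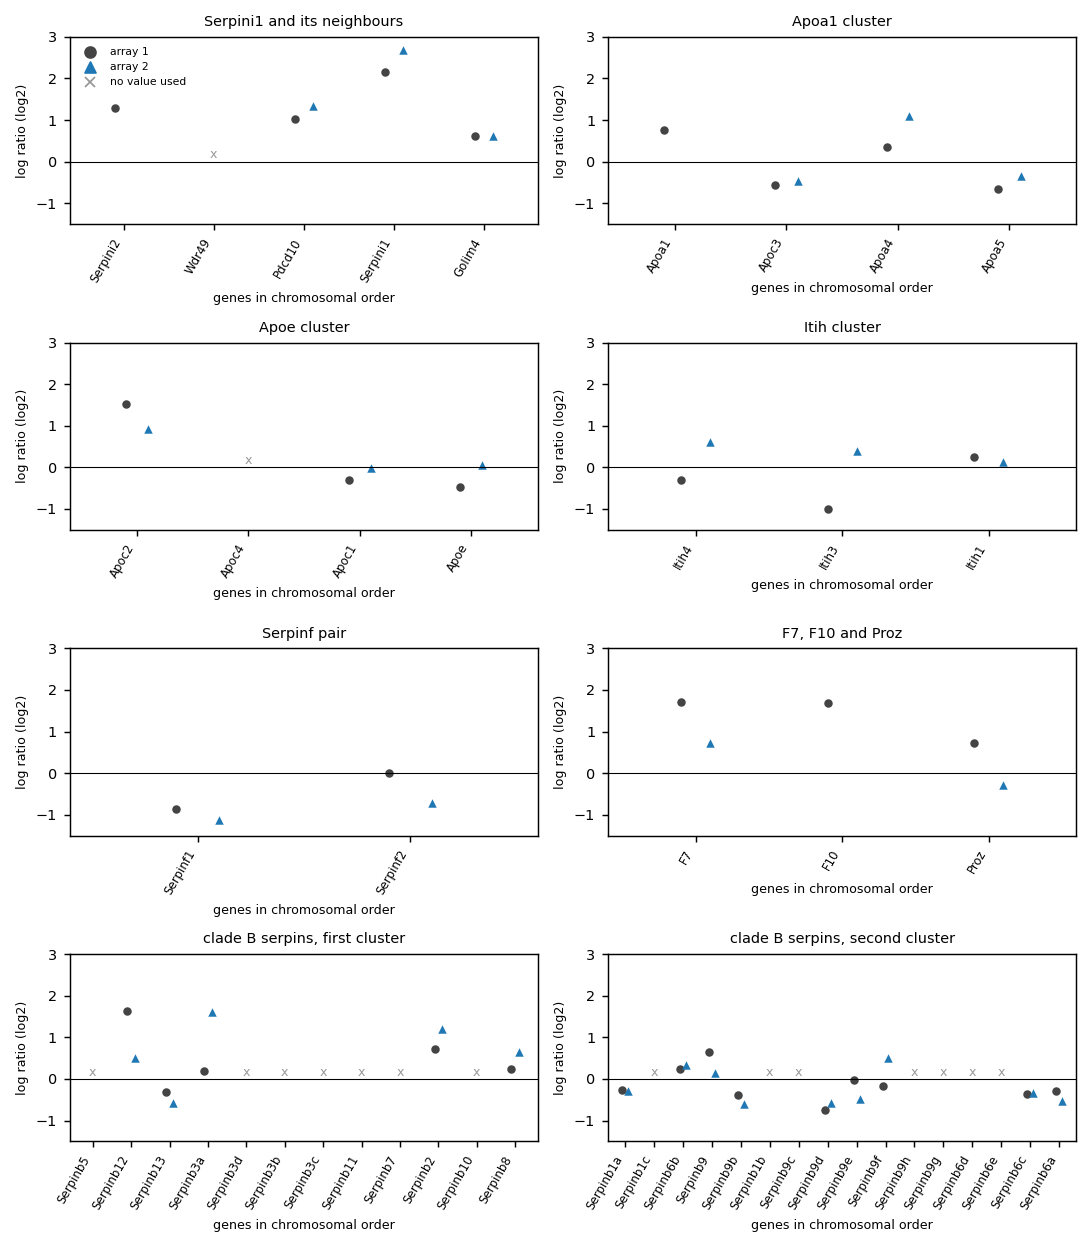
Log ratio (vertical axis, taken as log2) of neighbouring genes in chromosomal order at 8 loci, with a circle for array 1, a triangle for array 2 and a cross where no value was used. Serpini1, Pdcd10 and Golim4 are above 0 on both arrays; Apoa4 is above 0 between Apoc3 and Apoa5, which are below it.

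Genes with a value on a single array are not part of the counts above. The 5 found on array 1 only were all positive: F10 at 1.69, Serpina5 at 1.39, Serpini2 at 1.28, Serpina11 at 0.88 and Apoa1 at 0.75. Of the 587 genes that the whole array measured on array 1 only, 90.1% were positive, with a median of 0.93, so a positive value was the usual case there. On array 2 only, F5 had 0.83, Serpina10 0.27, C1qa 0.19, Cfd -0.01 and Saa3 -0.57, where 81.7% of 906 genes were positive.

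Other hepatocyte genes were read beside the plasma genes. Among hepatocyte enzymes that are not secreted, 7 of 22 were measured, of which 4 had positive and 3 negative ratios. Limma called 1 of the 7, against 2.90% of all genes. Ugt2b5, a glucuronosyltransferase, had 0.97 and 1.48 and was called (limma adjusted p = 0.0475), a call kept in 4 of 9 alternatives. Fah, of tyrosine breakdown, had -1.30 and -0.59. Pck1, of gluconeogenesis, had -1.46 and -0.34. On the positive side, Gnmt had 0.89 and 0.30, Cyp7a1 1.26 and 0.15, and Otc 1.02 and 0.11, none of them called. Cps1, the remaining enzyme, had -0.15 and -0.14. The medians of the enzymes were 0.89 on array 1 and 0.11 on array 2. Further secreted liver proteins had a median of 0.00 over 15 measured, with 0 called in limma. An unadjusted p below 0.05 was met by 3, against 27.5% of all genes. Trf, transferrin, had 0.99 and 0.37, Igfals, the carrier of insulin-like growth factors, 0.85 and 0.61, and Hgf, hepatocyte growth factor, -0.41 and -0.59. Whether the share of liver cells in the samples moved with the plasma genes was not tested.

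Of 9 hepatocyte transcription factors none was called (0 in limma). Ppara, a lipid-sensing nuclear receptor, was the 1 gene with an unadjusted p below 0.05 (27.5% of all genes), at 0.71 and 0.35. Cebpa, which drives many hepatocyte genes, had -0.19 and -0.50, and Foxa2 had 0.13 and 0.78. Of 14 genes of acute phase signalling, 8 were negative and 2 positive on both arrays, with a median of -0.25. None was called (0 in limma), and 3 stood at an unadjusted p below 0.05, against 27.5% of all genes. Jak2, a kinase of cytokine receptors, had -1.18 and -0.68. Socs3, a feedback inhibitor of interleukin 6 signalling, had -0.39 and -0.45, and Lif, a cytokine of that family, had -0.31 and -0.58.

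Markers of other cells that make or carry these proteins were read in the same way. Of 9 macrophage and Kupffer cell markers, both arrays were positive for 3 and negative for 3. Cd14 alone was called, at -1.43 and -0.96 (limma adjusted p = 0.0475). Fcgr1, at 0.75 and 1.48, and Cd163, at 0.39 and 0.93, lay on the positive side and were not called. Of 7 platelet and megakaryocyte markers, both arrays were positive for 1 and negative for 2, with 0 called in limma and Gp1bb, at -0.48 and -0.38, the 1 gene with an unadjusted p below 0.05. Of 9 endothelial markers 7 were positive and 0 negative, with Flt1 and Robo4 called. Of 8 fibroblast markers 0 were positive and 6 negative, with Col1a1 called at -2.80 and -3.05. Over all genes 2.90% were called and 27.5% had an unadjusted p below 0.05 in limma. Of 9 alternatives, the call was kept in 2 for Cd14, in 4 for Flt1, in 1 for Robo4 and in 7 for Col1a1. For Cd14 these were medians of probes and symbols as given, and for Robo4 medians of probes, which left their values unchanged. Their part in the values of the plasma genes was not tested.

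**Figure D5:**
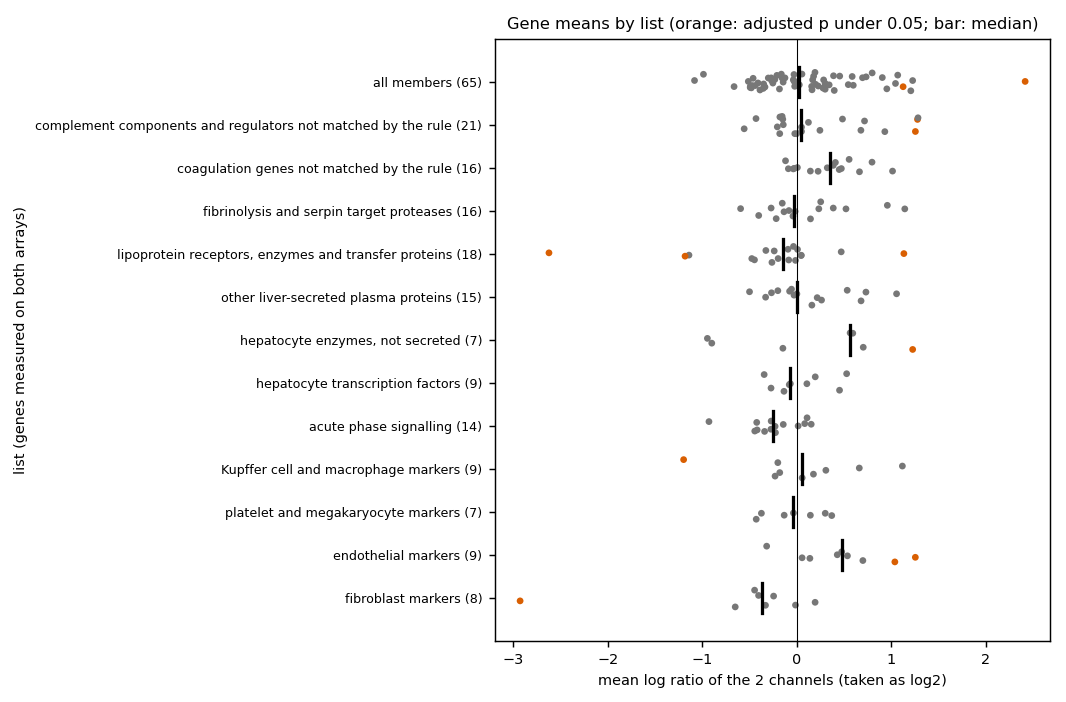
Mean log ratio of the 2 arrays (horizontal axis, taken as log2) for each gene of the plasma protein and serpin set and of 12 other lists, with called genes in orange and the median of each list as a black bar. The set of 65 has its median at 0.03 and its 2 called genes on the right, and the medians of the other lists run from -0.37 for fibroblast markers to 0.56 for hepatocyte enzymes.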

How the data were processed

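RNA of liver metastases (Cy3) and primary tumours (Cy5) was compared on 2 arrays, per the labels. The deposited values are log ratios, taken as log2, made by the authors; the sources used here give no log base, numerator, background correction, spot filter or normalization. Array medians were 0 and -5.53e-06.

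Both arrays gave values for 18837 of 23473 probes. In the platform annotation 16631 probes carry 1 symbol, 6842 carry none and 0 carry several; 3947 symbols were updated and 62 kept as given through the GRCm38.p6 RefSeq table. Probes of a gene were averaged. The test of each ratio against 0 used limma 3.58.1 (R 4.3.3; intercept, eBayes, 1 residual and 4.06 prior degrees of freedom) and adjusted by Benjamini-Hochberg. Only 2 arrays limit the precision. The moderated p-values combine each gene's spread between the arrays with a prior spread pooled over all genes, and the prior has the larger weight. On simulated ratios of 13506 genes, of which 200 were changed, changes of 1 unit were recovered in 32% of cases. Changes of 2 units were recovered in 100%, and there were 18 false calls. The simulated spreads were drawn from the prior that limma fitted, without dye bias. The simulation therefore cannot give the error rate of the real arrays.

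The genes and the 12 other lists were chosen with earlier results of these data known. Any of the 65 genes could be named; of other lists, genes called, with an unadjusted p below 0.05, or among the 3 farthest from 0 on the array nearer to 0, plus Plau and Plg, chosen after their values were seen. Motifs and neighbours were searched in RefSeq tables with Python 3.11.15, and figures drawn with matplotlib 3.10.9. Alternatives were centring, scaling, quantile normalization, medians of probes, probes as units, symbols as given, robust or no moderation, a minimum fold of 1.2 and single arrays. For a gene read by a single probe, medians of probes and symbols as given left the values unchanged. A call kept in those alternatives is therefore no added support.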

Additional observations from a re-analysis of the deposited data

How the results depend on the processing

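The count of called genes, 391 in the main analysis, was 241 after scaling the arrays to equal spread, 4 after quantile normalization, 161 in the fit on probes and 108 with a minimum fold of 1.2. It was 0 without moderation, where 1450 genes had an unadjusted p below 0.05 in the limma fit. The count among the 65 plasma protein and serpin genes, 2 in the main analysis, was 1 (Serpini1) after scaling, in the fit on probes and with a minimum fold of 1.2. It was 0 after quantile normalization, with 22 at an unadjusted p below 0.05, and 0 without moderation, with 5, in limma's test. Without moderation the test rests on 1 residual degree of freedom. It stayed 2 with centring, medians of probes, symbols as given and robust moderation. The number at least 2-fold from 0 on both arrays was 1 after scaling and 2 in the other alternatives with both arrays. Under the looser rule of 1 array alone, on either side of 0, 5 genes were 2-fold from 0 on array 1 and 10 on array 2. The median of the 65 genes ran from 0.01 to 0.13 on single arrays and was between 0.03 and 0.06 in the other alternatives. Of the 80 genes followed through the alternatives, 26 of them from the set of 65, 0 changed sign in the 9 alternatives that use both arrays. Only centring, scaling and quantile normalization could move the mean of a gene read by 1 probe. Most of these genes were followed because of their p or their distance from 0. The count of signs is therefore no test of robustness. No paired analysis was possible because each value is already a ratio within 1 array: the test against 0 is itself the comparison by array pair, and no separate samples are left to block. Intensities were not analysed here, so dim probes could not be set aside.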
